A study of Mus musculus with 6 samples.

Results

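The keratins described here are Krt7, Krt8, Krt18, Krt19, Krt80, Krt20, Krt5, Krt14 and Krt17, 9 of the 34745 genes in each count file and 9 of its 51 keratin genes, chosen by name as the keratins that mark simple, glandular and basal epithelia. RNA came from 889 cells, a murine lung cancer line of the C57BL/6 strain, in 3 libraries labelled sg-con and 3 labelled sg-kiaa1522. According to the methods both groups carried Cas9 with a guide RNA, against EGFP in the control and against kiaa1522 in the other group, and transduced cells were kept by puromycin selection or sorting. The labels do not say that the replicates are separate cultures, so p-values measure only the spread between these libraries, which may be technical.

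The libraries held between 12220001 and 18609376 counts, and the smallest was sg-kiaa1522 replicate 1. The targeted gene, listed as C77080, was higher in the libraries labelled sg-kiaa1522, at 209 ± 6.35 CPM against 126 ± 2.92 in sg-con (SD, n = 3), with an adjusted p of 9.1e-05 in edgeR for its log2 fold change of 0.73. These libraries are therefore named by their label throughout, since the mRNA that the guide targets was not lower in them. RNA counts do not measure the protein, and the paper describes these cells as depleted of KIAA1522. CPM scale each count by the library total after TMM normalization. Of 5 epithelial markers, Epcam had 0 counts in all 6 libraries and Cldn4, Cldn7 and Esrp1 had at most 1, while Cdh1, which encodes E-cadherin, had between 259 and 1030. Nkx2-1, the transcription factor that marks lung epithelium, split both groups, at 55.4, 58.8 and 13.6 CPM in sg-con and 10.8, 9.45 and 39.3 CPM in sg-kiaa1522.

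Keratins are the intermediate filament proteins of epithelial cells. They form filaments only as heteropolymers of an acidic type I and a basic type II chain. Krt8 (type II) pairs with Krt18 (type I) in simple epithelia, Krt19 is a further type I chain of glandular and ductal cells, and Krt7 is a type II chain of the same tissues. Krt5 and Krt14 are the pair of basal and squamous cells, Krt17 is a type I chain of basal cells and wound edges, Krt20 marks intestinal and urothelial cells, and Krt80 is a type II chain found in many epithelia. In lung adenocarcinoma Krt7, Krt8, Krt18 and Krt19 are the usual keratins, whereas Krt5 and Krt14 are used to recognise squamous tumors.

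The type II members lie on chromosome 15 and the type I members on chromosome 11, except Krt18, which lies beside Krt8. In GENCODE M21, on GRCm38, Krt8 (ENSMUSG00000049382) runs on the minus strand from 101996698 to 102004482 and Krt18 (ENSMUSG00000023043) on the plus strand from 102028180 to 102032027. The 2 genes thus start toward each other across 23697 bases and are transcribed in opposite directions. Krt19 (ENSMUSG00000020911) is on chromosome 11 from 100140810 to 100148665, and Krt80 (ENSMUSG00000037185) on chromosome 15 from 101347444 to 101370162, both on the minus strand. The sequences before the first annotated exon of the neighbouring pair are shown because these genes carry most of the keratin RNA in these cells. They come from the RefSeq promoter entries on GRCm38.p6, read 5′ to 3′ on the strand of each gene, and stop where the GENCODE exon of the gene begins.
Krt8, chr15:102004483-102004592, minus strand: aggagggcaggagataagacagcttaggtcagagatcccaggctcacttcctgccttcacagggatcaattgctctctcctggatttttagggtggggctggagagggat
Krt18, chr15:102027966-102028179, plus strand: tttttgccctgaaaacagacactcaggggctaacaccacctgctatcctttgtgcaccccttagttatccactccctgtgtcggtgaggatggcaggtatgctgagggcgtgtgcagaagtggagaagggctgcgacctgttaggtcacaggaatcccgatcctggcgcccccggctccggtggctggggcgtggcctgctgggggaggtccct

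A set of 3 short motifs was searched on both strands of the 250 bases before the RefSeq start, TATAAA (the TATA box), TGANTCA (AP-1) and GGGCGG (the GC box). None was present in the windows of Krt8 and Krt18, so no letters are capitalised above. Across all 32851 promoter entries, 12.4% held TATAAA, 6.75% TGANTCA and 32.7% GGGCGG. Entries were found for 6 members. Krt7 held 4 GC boxes, Krt20 held TATAAA 29 bases before its start, and Krt5 and Krt14 held none of these letters. Krt19, Krt80 and Krt17 were not searched.

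The 889 cells expressed a simple epithelial keratin set. Krt18, Krt8 and Krt19 were among the most abundant transcripts of the cells, Krt80 was present at a low level, and Krt7, Krt20, Krt5, Krt14 and Krt17 were at or near 0. Levels of different genes are compared as TPM, which divide the counts by the summed exon length of each gene. Krt18 had 3565, 3828 and 3968 TPM in the sg-con libraries and 3703, 3408 and 3502 TPM in the libraries labelled sg-kiaa1522. Krt8 had 1529, 1696 and 1803 TPM in sg-con and 1395, 1332 and 1329 TPM in sg-kiaa1522. Krt19 had 955, 1161 and 1188 TPM in sg-con and 765, 678 and 679 TPM in sg-kiaa1522. The order Krt18, Krt8, Krt19 held in every library without overlap between neighbours. By mean TPM over the 6 libraries these genes ranked 31, 65 and 106 among the 34344 genes with a known length.

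Krt18 made up most of the keratin RNA per length, 57.6% ± 1.05 of all keratin TPM in sg-con and 63.0% ± 0.331 in the libraries labelled sg-kiaa1522 (SD, n = 3). Krt8 made up 25.4% ± 0.339 and 24.1% ± 0.392, and Krt19 16.7% ± 0.839 and 12.6% ± 0.381 (SD, n = 3). Krt80 held 0.107% ± 0.00985 and 0.136% ± 0.0214. Together, Krt8, Krt18 and Krt19 accounted for at least 99.7% of the keratin TPM in every library and for between 0.317% and 0.454% of all counts. Vim, which encodes the mesenchymal filament protein vimentin, was at 2264 ± 45.3 TPM in sg-con and 2815 ± 88.9 TPM in sg-kiaa1522 (SD, n = 3). On this scale it lay between Krt18 and Krt8 in every library. That place depends on the lengths used, 4743 bases over 6 transcripts for Vim and 1437 bases in 1 transcript for Krt18. In CPM, without division by length, Vim was above Krt18, with means of 4169 and 2114 in sg-con and 4861 and 1850 in sg-kiaa1522.

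**Figure D1:**
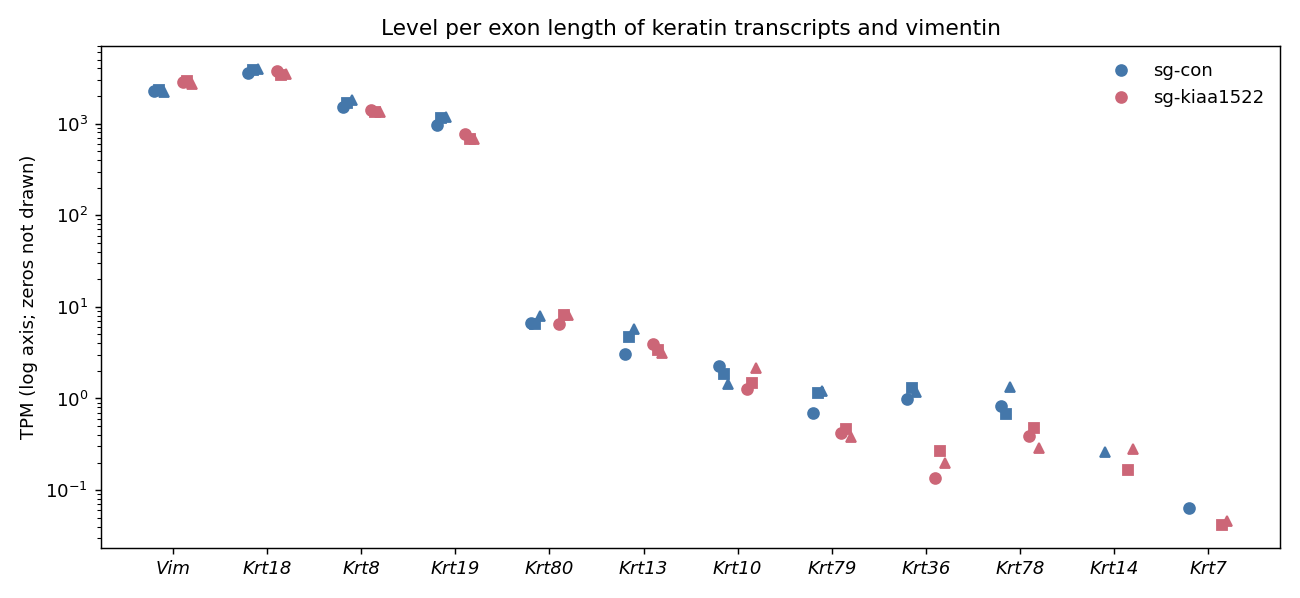
Level per exon length (TPM, log axis) of vimentin and of 11 keratin genes in each of the 3 sg-con libraries (blue) and the 3 libraries labelled sg-kiaa1522 (red), with zeros not drawn. Krt18, Krt8 and Krt19 lie between 678 and 3968 TPM, whereas Krt80 lies between 6.42 and 8.20 TPM.

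Similar copies and overlapping genes could draw reads from these members. The processed pseudogene Krt8-ps matches 941 bases of the Krt8 transcript at 98.6% identity, and Gm5200 matches 1267 bases of Krt18 at 90.5%. Neither is among the listed genes, so their share of reads could not be checked. An antisense gene covers 5.16% of the exon bases of Krt8 and another 4.11% of those of Krt80, and no other gene overlaps the exons of Krt18 and Krt19. Whether the counting used strand is not given in the sources used here.

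The design asks whether expression differs between cells with the kiaa1522 guide and control cells. Of the 9 members, 4 had more than 500 counts over the 6 libraries and were tested among 10046 genes. Krt19 and Krt8 fell in the libraries labelled sg-kiaa1522, Krt18 was lower by a small margin that only just passed the test, and Krt80 did not pass. At an adjusted p of at most 0.05, 3 of these 4 genes were lower and 0 higher, where 26.3% of all tested genes were lower and 26.3% higher. The filter chose the 4 by their total count. No member passed the threshold of the methods, which adds a minimum change of 1 on the log2 scale, up or down, and which 4.34% of tested genes passed as lower and 2.74% as higher. On the TPM scale this balance turned, with 304 genes lower and 348 higher in limma. The median log2 fold change was -0.30 over the 4 members and -0.01 over all tested genes.

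Krt19, the type I chain of glandular cells, had the largest fall among the 4. It was at 670, 847 and 866 CPM in the sg-con libraries and at 519, 464 and 450 CPM in the libraries labelled sg-kiaa1522. The groups did not overlap, as for 31.1% of tested genes on the lower side, and the lowest control value was that of sg-con replicate 1. The mean fell by 39.9%, from 794 ± 108 to 478 ± 36.1 CPM (SD, n = 3). Fitted by edgeR, this was -0.73 on the log2 scale, with a standard error of 0.108, a 95% interval from -0.99 to -0.48 and an adjusted p of 0.0012. The adjusted p stayed below 0.05 under every alternative run, and omitting single libraries moved the estimate between -0.85 and -0.67. Of all tested genes, 8.82% had an equal or lower log2 fold change.

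Krt8, the type II chain, fell less. It was at 1132, 1307 and 1387 CPM in sg-con and at 998, 962 and 931 CPM in the libraries labelled sg-kiaa1522. The groups did not overlap here either. The mean went from 1275 ± 130.1 to 963 ± 33.4 CPM (SD, n = 3). In edgeR Krt8 fell by 24.5%, which is -0.40 on the log2 scale with a standard error of 0.0812, a 95% interval from -0.59 to -0.22 and an adjusted p of 0.0046. The adjusted p was below 0.05 under every alternative run.

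Krt18, the type I partner of Krt8, was at 1938, 2165 and 2239 CPM in sg-con and at 1944, 1806 and 1800 CPM in the libraries labelled sg-kiaa1522. The groups overlapped, since sg-kiaa1522 replicate 1 lay above sg-con replicate 1. The means were 2114 ± 157 and 1850.0 ± 81.2 CPM (SD, n = 3). The estimate was -0.19 on the log2 scale with a standard error of 0.0697 and a 95% interval from -0.36 to -0.03, and its adjusted p was 0.0496 in edgeR. This call is fragile. The adjusted p was above 0.05 when any library other than sg-con replicate 1 was left out (0.057 to 0.14 in the same test), and 0.0050 without sg-con replicate 1. On the TPM scale, where the median of all genes moved to 0.09, Krt18 was at -0.10 (adjusted p = 0.21 in limma), and at -0.18 relative to that median.

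Krt80 was at 15.9, 16.2 and 20.2 CPM in sg-con and at 15.3, 19.3 and 18.5 CPM in the libraries labelled sg-kiaa1522. The groups overlapped over nearly their whole range. Its estimate in edgeR was 0.03 on the log2 scale, with a standard error of 0.138 and an adjusted p of 0.88, and its 95% interval, -0.29 to 0.35, leaves room for a difference in either direction. Its sign changed with single libraries left out, between -0.04 and 0.14.

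**Figure D2:**
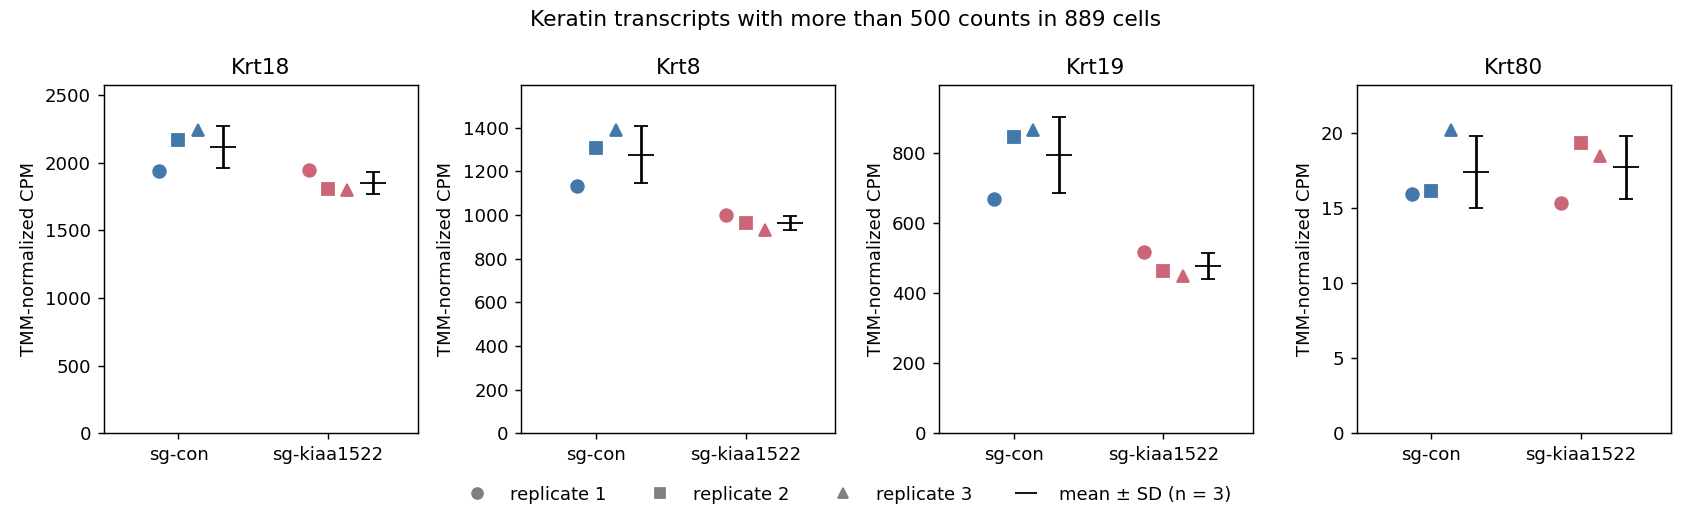
TMM-normalized CPM of Krt18, Krt8, Krt19 and Krt80 in each library, with replicates marked by shape and the mean ± SD (n = 3) beside them. For Krt8 and Krt19 the groups do not overlap, while for Krt18 and Krt80 they do.

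The 3 abundant keratins did not fall by equal amounts, and ratios between them need no scaling by library size. Per kilobase of exon, the ratio of Krt8 to Krt18 was 0.429, 0.443 and 0.455 in sg-con and 0.377, 0.391 and 0.380 in the libraries labelled sg-kiaa1522. Every control ratio was above every other one, with means of 0.442 ± 0.0128 and 0.382 ± 0.0075 (SD, n = 3) and a log2 difference of -0.21. The exact two-sided permutation test gave p = 0.1, the smallest that 3 libraries against 3 allow. The ratio of Krt19 to Krt18 went from 0.290 ± 0.0195 to 0.200 ± 0.00649 (SD, n = 3), a log2 difference of -0.54. That of Krt19 to Krt8 went from 0.656 ± 0.0301 to 0.523 ± 0.0224 (SD, n = 3), a log2 difference of -0.33. These 2 ratios were added after the values were seen, and each also gave no overlap and an exact permutation p of 0.1 (0.1 after adjustment over the 3 ratios). With each library left out in turn the log2 differences stayed between -0.23 and -0.19, between -0.59 and -0.50, and between -0.36 and -0.30.

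**Figure D3:**
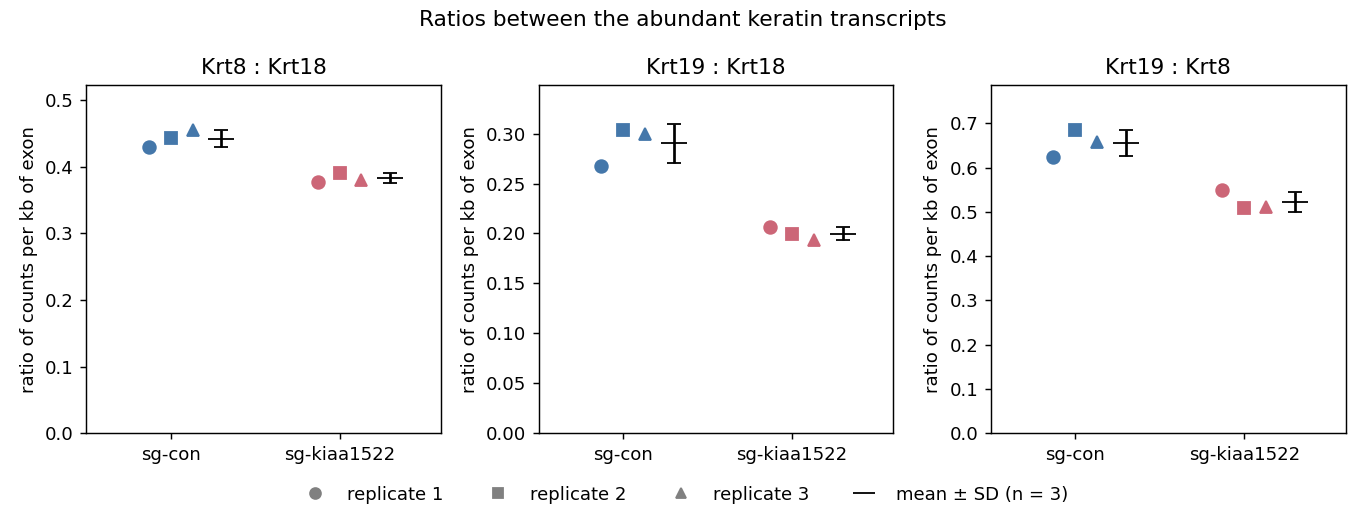
Ratios of counts per kilobase of exon between Krt8, Krt19 and Krt18 in each library, with the mean ± SD (n = 3). Each of the 3 ratios is lower in every library labelled sg-kiaa1522 than in every sg-con library.

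The other 5 members had at most 3 counts in any library. Krt20 and Krt5 had 0 counts in all 6. Krt17 had 1 count, in sg-con replicate 2. Krt7 had 3, 0 and 0 counts in sg-con and 0, 2 and 2 in the libraries labelled sg-kiaa1522. Krt14 had 0, 0 and 3 against 0, 2 and 3. A count of 0 allows up to 3 counts, which correspond to between 0.161 and 0.246 CPM in these libraries (counting error only). No difference in these genes was detectable at this depth. Krt14 and Krt17 share 756 transcript bases at 91.0% identity, and whether single counts were placed correctly between them was not tested.

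Outside the members, 42 keratin genes are listed and none had more than 500 counts. Of these, 28 had 0 counts in every library, 8 had at most 5 in any library, and 6 had more, Krt10, Krt13, Krt36, Krt39, Krt78 and Krt79. Krt13, a type I chain of mucosal squamous epithelia, was the highest of them, with 37, 62 and 68 counts in sg-con and 32, 42 and 35 in the libraries labelled sg-kiaa1522. These genes could be tested only in the fit over the 18499 genes with at least 1 count, in which 16.8% of genes were lower and 16.7% higher at an adjusted p of at most 0.05, and 5.09% and 4.15% with the minimum change as well. In that fit Krt36, Krt78 and Krt79 were lower by both criteria, and Krt10, Krt13 and Krt39 did not pass. Krt36, Krt78 and Krt79 had more counts in sg-con and Krt39 more in sg-kiaa1522, and Krt36 and Krt39 had over 5 counts only in that group, so the choice of these genes by their counts is not independent of the difference.

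Krt36, a hair keratin, had 11, 16 and 13 counts in sg-con and 1, 3 and 2 in the libraries labelled sg-kiaa1522 (adjusted p = 0.0037 in edgeR). Krt79, a type II chain of skin and its glands that lies in the same cluster as Krt8, had 22, 40 and 38 counts against 9, 15 and 11, with a log2 fold change of -1.35 (adjusted p = 0.0072 in edgeR). Both stayed below 0.05 with each library left out. Krt78 had 19, 17 and 30 counts against 6, 11 and 6, and its adjusted p of 0.022 in edgeR was lost without sg-con replicate 3 or without sg-kiaa1522 replicate 3, rising to 0.13 at most. All are minor transcripts, with at most 68 counts in a library.

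Keratin filaments end at desmosomes, which join cells to each other, and at hemidesmosomes, which join cells to laminin in the basement membrane. Of 15 desmosome genes, 4 were tested, of which 2 were lower, 1 higher and 1 did not pass, where 26.3% of all tested genes were lower and 26.3% higher at the same adjusted p. The median log2 fold change of the 4 was -0.36, against -0.01 over all tested genes. Jup, which encodes plakoglobin of the desmosome plaque, was at 74.6, 83.7 and 86.6 CPM in sg-con and at 46.1, 32.6 and 42.3 CPM in the libraries labelled sg-kiaa1522. Its change of -1.02 on the log2 scale, with a standard error of 0.135 and an adjusted p of 7.1e-04 in edgeR, was the only one of the list past the fold threshold, and was above -1 without sg-con replicate 3 or without sg-kiaa1522 replicate 2 (-0.89 at most). Pkp2, a plakophilin of the plaque, fell by 0.77 on the log2 scale, with means of 157 ± 4.37 and 92.0 ± 5.75 CPM (SD, n = 3). Ppl, which encodes periplakin, rose by 0.44 on the log2 scale.

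The plaque protein that binds keratin directly, desmoplakin (Dsp), had at most 3 counts in any library, and the desmosomal cadherins Dsg1a, Dsg2, Dsg3, Dsc1, Dsc2 and Dsc3 had 0 in all 6. Pkp1 had 45, 33 and 26 counts against 93, 110 and 99, below the filter, and was higher in the fit over all genes with a count (log2 fold change 1.71, adjusted p = 8.0e-05 in edgeR).

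Of the 10 genes of hemidesmosomes and their plakin linkers, 9 had a value and 7 were tested, of which 2 were lower, 2 higher and 3 did not pass (26.3% lower and 26.3% higher over all tested genes), with a median log2 fold change of 0.13. Lamb3, a chain of the laminin that hemidesmosomes bind, was at 297, 301 and 278 CPM in sg-con and at 112, 77.9 and 65.6 CPM in the libraries labelled sg-kiaa1522. The groups were far apart, at -1.78 on the log2 scale, with a standard error of 0.180 and an adjusted p of 2.3e-04 in edgeR. Lama3 had at most 1 count. Dst, a plakin that links filaments to the integrin, rose by 0.63 on the log2 scale (adjusted p = 0.0085 in edgeR), and Plec, which encodes plectin, had a log2 fold change of -0.01. The calls for Itgb4 (0.39) and Cd151 (-0.22) were each lost under 8 of 13 alternatives.

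The other intermediate filament genes moved in both directions. Of 16, 6 were tested, and 4 were lower and 2 higher (26.3% lower and 26.3% higher over all tested genes), with a median log2 fold change of -0.67. Vim was at 4075, 4304 and 4128 CPM in sg-con and at 4937, 5040 and 4605 CPM in the libraries labelled sg-kiaa1522. It rose by 0.22 on the log2 scale, with a standard error of 0.0554, an adjusted p of 0.012 in edgeR and no overlap between groups, as for 30.6% of tested genes on the higher side. Its adjusted p was 0.056 in the same test without sg-kiaa1522 replicate 2. Prph, which encodes the neuronal filament protein peripherin, had 54, 64 and 58 counts in sg-con and 352, 520 and 581 in sg-kiaa1522, which is 3.19 on the log2 scale with a standard error of 0.126 and an adjusted p of 8.4e-06 in edgeR. Nes, which encodes nestin, had means of 75.3 ± 2.32 and 36.3 ± 4.55 CPM (SD, n = 3). The fitted change was -1.05 on the log2 scale, and -0.97 without sg-kiaa1522 replicate 2. The nuclear lamins Lmna, Lmnb1 and Lmnb2 fell by 0.74, 0.60 and 0.73 on the log2 scale, and all 3 calls held under every alternative run.

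**Figure D4:**
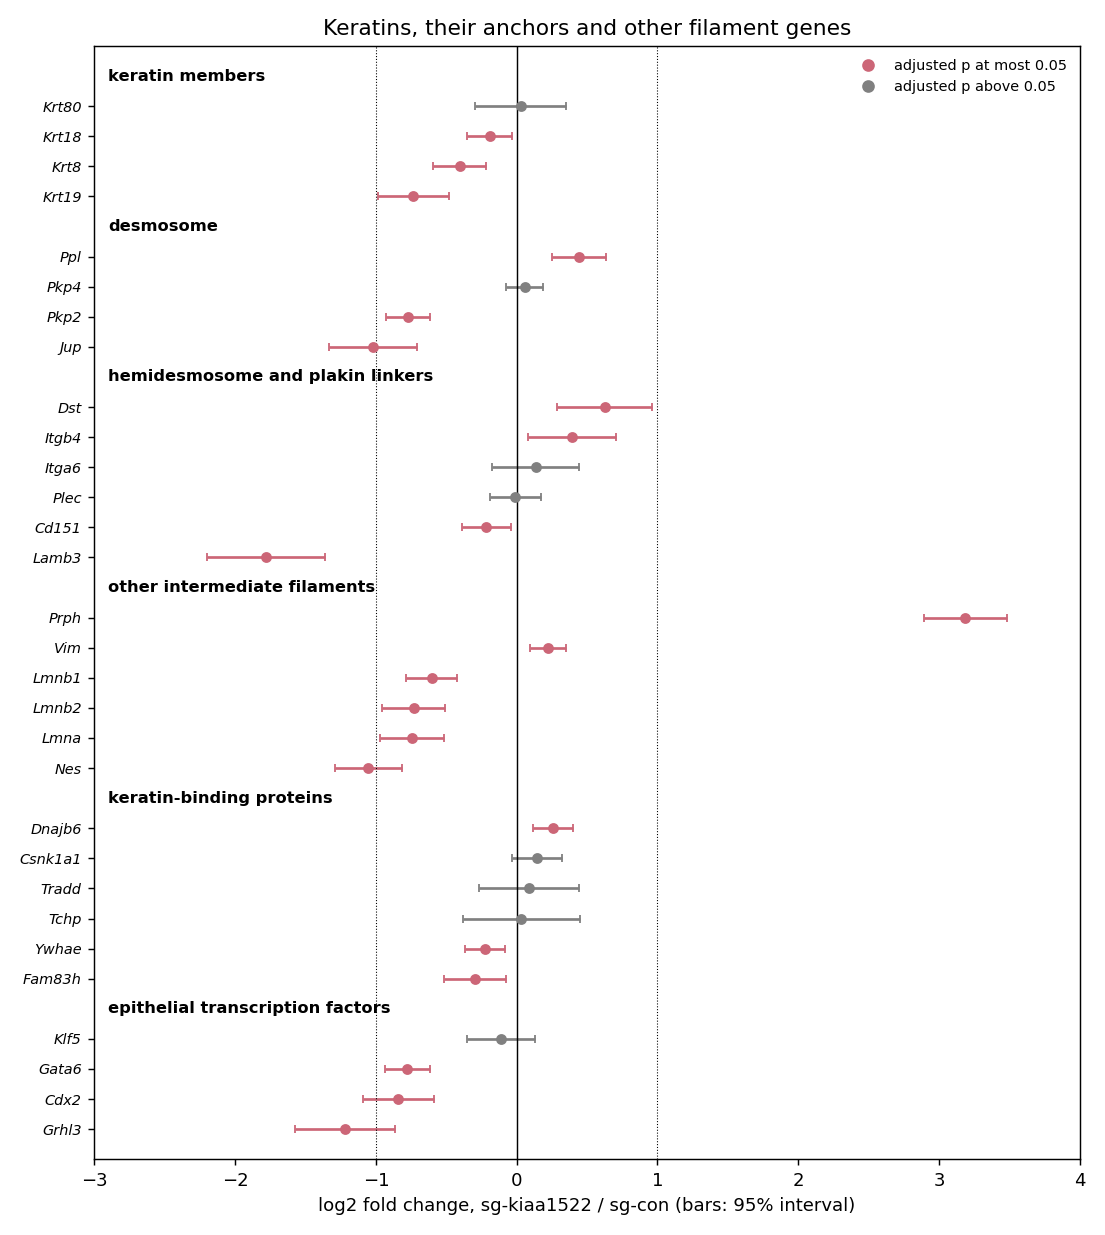
Log2 fold change (libraries labelled sg-kiaa1522 over sg-con) with its 95% interval for the tested genes, all but 1, of the keratin, desmosome, hemidesmosome, intermediate filament, keratin-binding and transcription factor lists. Krt19 and Krt8 lie left of 0 and Krt80 on it, with Lamb3 (-1.78) and Prph (3.19) at the ends.

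Among 7 genes whose proteins bind keratins or act on their filaments, 6 were tested, of which 2 were lower, 1 higher and 3 did not pass, beside the same 26.3% in each direction over all tested genes. Dnajb6, a chaperone that binds the Krt18 protein, rose by 0.26 on the log2 scale (adjusted p = 0.0098 in edgeR). Ywhae, a 14-3-3 protein, had a log2 fold change of -0.23 (adjusted p = 0.016 in edgeR) and Fam83h, which recruits casein kinase to keratin filaments, one of -0.30 (adjusted p = 0.032 in the same test). Both calls were lost under several alternatives, 5 of 13 for Ywhae and 8 of 13 for Fam83h.

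Of 15 epithelial transcription factors, 4 were tested, of which 3 were lower and 1 did not pass (26.3% lower over all tested genes), with a median log2 fold change of -0.81. These lists are small and were chosen with earlier results of these data known, so nothing particular to them is read from the counts. Grhl3, a grainyhead factor of surface epithelia, was at 40.4, 41.7 and 40.5 CPM in sg-con and at 22.1, 16.5 and 14.4 CPM in the libraries labelled sg-kiaa1522, which is -1.22 on the log2 scale with a standard error of 0.153 and an adjusted p of 5.7e-04 in edgeR. Cdx2, an intestinal factor known to activate Krt20, fell by 0.84 on the log2 scale, while Krt20 itself was at 0 in both groups. Gata6 fell by 0.78, and Klf5 had a log2 fold change of -0.11 (adjusted p = 0.39 in edgeR). In the squamous list, 1 of 11 genes was tested, Sox2, at 0.10 (adjusted p = 0.30 in edgeR), and Trp63, the factor that drives Krt5 and Krt14 in basal cells, had between 26 and 42 counts.

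Markers of other states moved beside the keratins. Cdh1 had means of 56.2 ± 4.92 and 20.5 ± 1.14 CPM (SD, n = 3), so that it fell by 1.45 on the log2 scale (adjusted p = 5.1e-05 in edgeR). The 5 alveolar markers, Nkx2-1 among them, summed to 41.7 to 84.9 CPM in sg-con and 23.5 to 56.7 CPM in sg-kiaa1522, with Nkx2-1 setting most of the spread. Of the other alveolar markers, the surfactant gene Sftpb fell by 0.67 on the log2 scale (adjusted p = 0.012 in edgeR), from 16.9, 23.9 and 23.8 CPM to 12.2, 12.8 and 15.5 CPM. Napsa, an aspartic protease gene, had 19, 18 and 21 counts against 1, 5 and 3 (adjusted p = 0.0016 in edgeR over all genes with a count). In that fit Sftpc was also lower (adjusted p = 0.025 in edgeR), with 110, 20 and 45 counts against 8, 15 and 25, although the groups overlapped in CPM, and Lamp3 did not pass (adjusted p = 0.39 in edgeR). In the fibroblast list Col1a2 fell by 1.46 on the log2 scale, Dcn and Lum had at most 2 counts, and the summed level of the 6 genes was 423 to 440 CPM in sg-con and 145 to 163 CPM in sg-kiaa1522. The summed level of the 5 immune markers was 1.29 to 2.40 CPM in sg-con and 10.1 to 12.9 CPM in sg-kiaa1522, nearly all of it Cd68, a lysosomal protein gene that also marks macrophages, while Cd3e and Adgre1 were at 0 and Ptprc at or below 2 counts in sg-kiaa1522. The 4 endothelial markers summed to at most 1.66 CPM. The part of these changes in the keratin values was not tested, and fewer cells of a type cannot be told apart from less RNA per cell in bulk libraries.

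By the fixed rule of likeness, the root mean square difference in centred log2 CPM over the 6 libraries, the genes whose pattern was most like that of Krt18 were Gga1 (0.0172), Tmbim6 (0.0204), Ddrgk1 (0.0240), Mrps11 (0.0244) and Arhgef1 (0.0253). Krt8, its partner, had a difference of 0.109 and ranked 1226 of 10045 genes, Krt80 ranked 3649 and Krt19 ranked 5970.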

How the data were processed

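The authors trimmed adaptors and removed rRNA reads with Seqtk, mapped to GRCm38 with HISAT2 2.0.4 and counted uniquely mapped fragments with StringTie 1.3.0 (versions also in the submitters' processing notes). The deposited values are raw counts per Ensembl gene. The annotation release is not given in the sources used here. Genes with more than 500 summed counts (10046, 99.48% or more of each library) were fitted with edgeR 4.0.16 in R 4.3.3 (TMM, quasi-likelihood, Benjamini-Hochberg over all tested genes, no covariates). Following the study's methods, the threshold was an adjusted p up to 0.05 with a change of 1 or more on the log2 scale. Calls and list counts in the Results use the adjusted p alone, unless the fold threshold is also named. Standard errors come from the fold change and its F statistic. TPM used GENCODE M21 summed exon lengths (34344 identifiers matched), which understate genes with rarely used exons. The fit was tested on simulated data.

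Alternatives were RLE scaling, library size alone, DESeq2 1.42.0, other filters, the replicate block, no fold limit and each library left out. limma 3.58.1 on log2(TPM + 0.5) and the ratios with Krt19 were added after the data were seen. The members and hand-written lists were chosen with earlier results of these data known. A hemidesmosome gene is counted in its list but not reported by name here. Named genes are the members, other keratins, list genes past the threshold (up to 4 a list), Vim, markers and C77080. List genes below the threshold, other than Vim and the markers, were chosen after their values were seen. Replicates of a group differed beyond sampling noise. Chi-square over its degrees of freedom was 12.3 to 12.8 for pairs without sg-con replicate 1. It was 23.4 and 30.7 for that library against sg-con replicates 2 and 3. The same library had the lowest control CPM of Krt8, Krt18 and Krt19.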

Additional observations from a re-analysis of the deposited data

How the results depend on the processing

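Krt19 and Krt8 kept their direction and an adjusted p below 0.05 under every alternative. Krt18 was at -0.19 and above 0.05 with RLE size factors (adjusted p = 0.055 in edgeR) and with every gene with a count (0.062), at -0.18 with filterByExpr (0.061), at -0.19 with the replicate block (0.13), and at -0.10 in limma on log2(TPM + 0.5) (0.21). For Krt18 the adjusted p was below 0.05 with library size alone (-0.21, 0.043 in edgeR) and in the DESeq2 Wald test (-0.19, 0.048). Leaving out each library gave -0.26 to -0.15 for Krt18 and -0.040 to 0.14 for Krt80. The cause was not tested. On the TPM scale 2069 genes were lower and 3228 higher at an adjusted p of at most 0.05, against 2639 and 2638 in edgeR, and the median of all genes was 0.09 in place of -0.01. Relative to that median, Krt18 was at -0.18 on the TPM scale, close to its value in edgeR.

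The 436 lower and 275 higher genes past the threshold became 941 and 767 with every gene with a count, 812 and 607 with filterByExpr, and 2639 and 2638 with no limit on the fold change. They were 304 lower and 348 higher on the TPM scale, where more genes were higher than lower. Without that limit, the lower genes numbered 3 among the keratins, 2 in the desmosome, 2 in the hemidesmosome, 4 in the filament, 2 in the keratin-binding and 3 in the transcription factor list, and the higher ones 1, 2, 2 and 1 in the desmosome, hemidesmosome, filament and keratin-binding lists. Both wider filters gave 1 higher desmosome gene and 2 lower transcription factors, and every gene with a count gave 1 higher squamous gene. The single lower desmosome and filament genes (Jup and Nes) ranged from 0 to 1 with each library left out, and were 0 on the TPM scale, where their log2 fold changes were above -1.

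Same-numbered libraries did not deviate together (correlations of -0.23, -0.05 and -0.17), so no sign of pairing by number was seen. Shared handling of same-numbered libraries was not tested. The replicate block gave -0.40 for Krt8, -0.19 for Krt18, -0.73 for Krt19 and 0.03 for Krt80. At this depth, members with at most 3 counts allow no comparison.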

Other observations

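Values of the genes around the members are given as a description. Within 250 kb of Krt18, a window chosen after the values were seen, 10 other genes were tested, of which 7 were higher, 1 (Krt8) was lower and 2 did not pass, with a median log2 fold change of 0.37. Over all tested genes 26.3% were higher and 26.3% lower, and no regional difference was tested. Itgb7 (2.68), which encodes an integrin chain, and Soat2 (1.90), a cholesterol acyltransferase, had the largest values, and Eif4b, the nearest tested gene on the far side of Krt18, rose by 0.39 on the log2 scale. Around Krt19, 4 genes were tested, of which Jup (-1.02) and Gm12349 (-1.73) were lower and Hap1 (0.15) and Eif1 (-0.22) did not pass. Around Krt80, Acvr1b (0.73), an activin receptor, and Nr4a1 (0.25) were higher and Grasp (0.20) and Atg101 (0.18) did not pass.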
